A study of Macaca mulatta with 7 samples.

Results

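The nuclear genes of oxidative phosphorylation were described in the RNA of rhesus macaque (Macaca mulatta) sperm. Members were matched by gene name alone, but the set was chosen with earlier results of these data known. They are the subunit genes of complex I (NDUFA, NDUFB, NDUFC, NDUFS and NDUFV with a number), complex II (SDHA to SDHD), complex III (8 UQCR genes and CYC1), complex IV (15 COX subunit genes) and complex V (all names that open with ATP5). The names matched 82 of 18282 genes, with 36 in complex I, 4 in complex II, 9 in complex III, 15 in complex IV and 18 in complex V. ATP5S and ATP5SL carry such a name but are not known as subunits of the ATP synthase. Total RNA was sequenced from 3 Maltreated and 4 Control libraries of sperm cells, purified on a PureSperm 40/80 density gradient and extracted with TRIzol. The Maltreated libraries came from animals of 5.67, 5.71 and 5.78 years, and the Control libraries from animals of 5.88, 5.82, 5.72 and 5.92 years. The labels give no agent, genotype or further description of either group, and the purpose is known only from the title of the series, which speaks of early life stress and germline RNA. They do not say whether samples of several animals or ejaculates were pooled, so p-values measure the spread between these 7 libraries.

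Oxidative phosphorylation takes place in the inner membrane of the mitochondrion. Complexes I and II pass electrons from NADH and succinate to ubiquinone, complex III passes them to cytochrome c, and complex IV passes them to oxygen. Complexes I, III and IV pump protons, and complex V, the ATP synthase, uses the proton gradient to make ATP. The subunits that mitochondrial DNA encodes are outside the 82 genes and were not analysed here. Mammalian sperm carry their mitochondria in a sheath around the midpiece of the tail. They make little or no new nuclear RNA, so the RNA in them is thought to come largely from earlier stages of spermatogenesis. Some complex IV subunits have a second gene for 1 tissue. In humans and mice COX6B2 is known as a testis isoform of COX6B1. COX8C and COX7B2 are also known from testis, COX4I2 from lung, and COX6A2 and COX7A1 from heart and skeletal muscle.

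Reads on the strand of the gene, called sense counts here, came to 30715268, 6160996 and 10690315 in Maltreated 1, 2 and 3, against 9847743, 5528056, 6002772 and 5316383 in Control 1, 2, 3 and 4. A sense count is a sum over exon entries, so a read that spans several exons counts on each of them. Markers of sperm and spermatids, among them PRM1 and PRM2, summed to 45017 to 102520 CPM (sense counts scaled to a common library size with TMM factors) in Maltreated and 46510 to 62588 CPM in Control libraries. All 15 of these markers passed the filter on low counts. Markers of leukocytes, 14 genes of which 10 passed the filter, stood apart in 1 library of each group. They summed to 950.3 CPM in Maltreated 3 and 684 CPM in Control 4, and to 11.2 to 54.4 CPM in the other 5 libraries. The markers behind the 2 sums differed. In Control 4 CD74 alone had 497 CPM, C1QB 63.5 and CSF3R 30.4 CPM, but PTPRC only 3.91 CPM. FCER1G, AIF1, CD79A and S100A8 had 0 there. In Maltreated 3 CD68 had 362, CD74 246 and PTPRC 67.4 CPM, but C1QB 1.48 and CSF3R 4.34 CPM. Markers of epithelium and accessory glands, 10 genes of which 3 passed, summed to 296 CPM in Control 2 and to 7.77 to 32.6 CPM in the other 6 libraries. Markers of somatic testis cells, 11 genes of which 6 passed, summed to 270.0 CPM in Maltreated 3 and 148 CPM in Control 4, and to 16.8 to 68.5 CPM in the other 5 libraries. The same libraries were high in leukocyte markers, and the genes of this list, which includes VIM, are not given singly. These sums thus do not establish a cell type. Control 4 and Maltreated 2 also missed the most members, with no sense count for 21 and 16 of the 82 genes. The number was 0 in Maltreated 1, 3 in Maltreated 3, and 7, 5 and 10 in Control 1, 2 and 3. The part of RNA from these cell types and of depth in the levels of the members was not tested, and values without the libraries concerned are given where they change a result.

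Every one of the 82 members had a sense count in at least 1 library, and 54 had one in all 7. Levels were compared between genes as CPM per kb of listed exon, averaged over the 7 libraries. The median member stood at 7.86 CPM per kb, against 1.35 for the 17813 genes with a sense count. By this measure 20 members lay above the 90th percentile of those genes (25.03 CPM per kb), 50 between the median and that point, and 12 below the median. Members of the same complex were far from equal. In complex IV the highest and lowest levels were 256 CPM per kb for COX6B2 and 0.0452 for COX4I2, and in complex I they were 328 for NDUFA13 and 0.275 for NDUFB6. The order of the members by CPM, not divided by length, was similar between libraries. Across the 82 genes, which are not independent replicates, Spearman's rho between 2 libraries was 0.668 to 0.934 with a median of 0.818 over 21 pairs. In bulk RNA, fewer cells of a type and less RNA per cell cannot be told apart. The sources used here do not say how reads that fit several loci were handled, so levels of members with close copies, such as ATP5L2 beside ATP5L, UQCRH beside UQCRHL and the ATP5G genes, are uncertain.

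**Figure D1:**
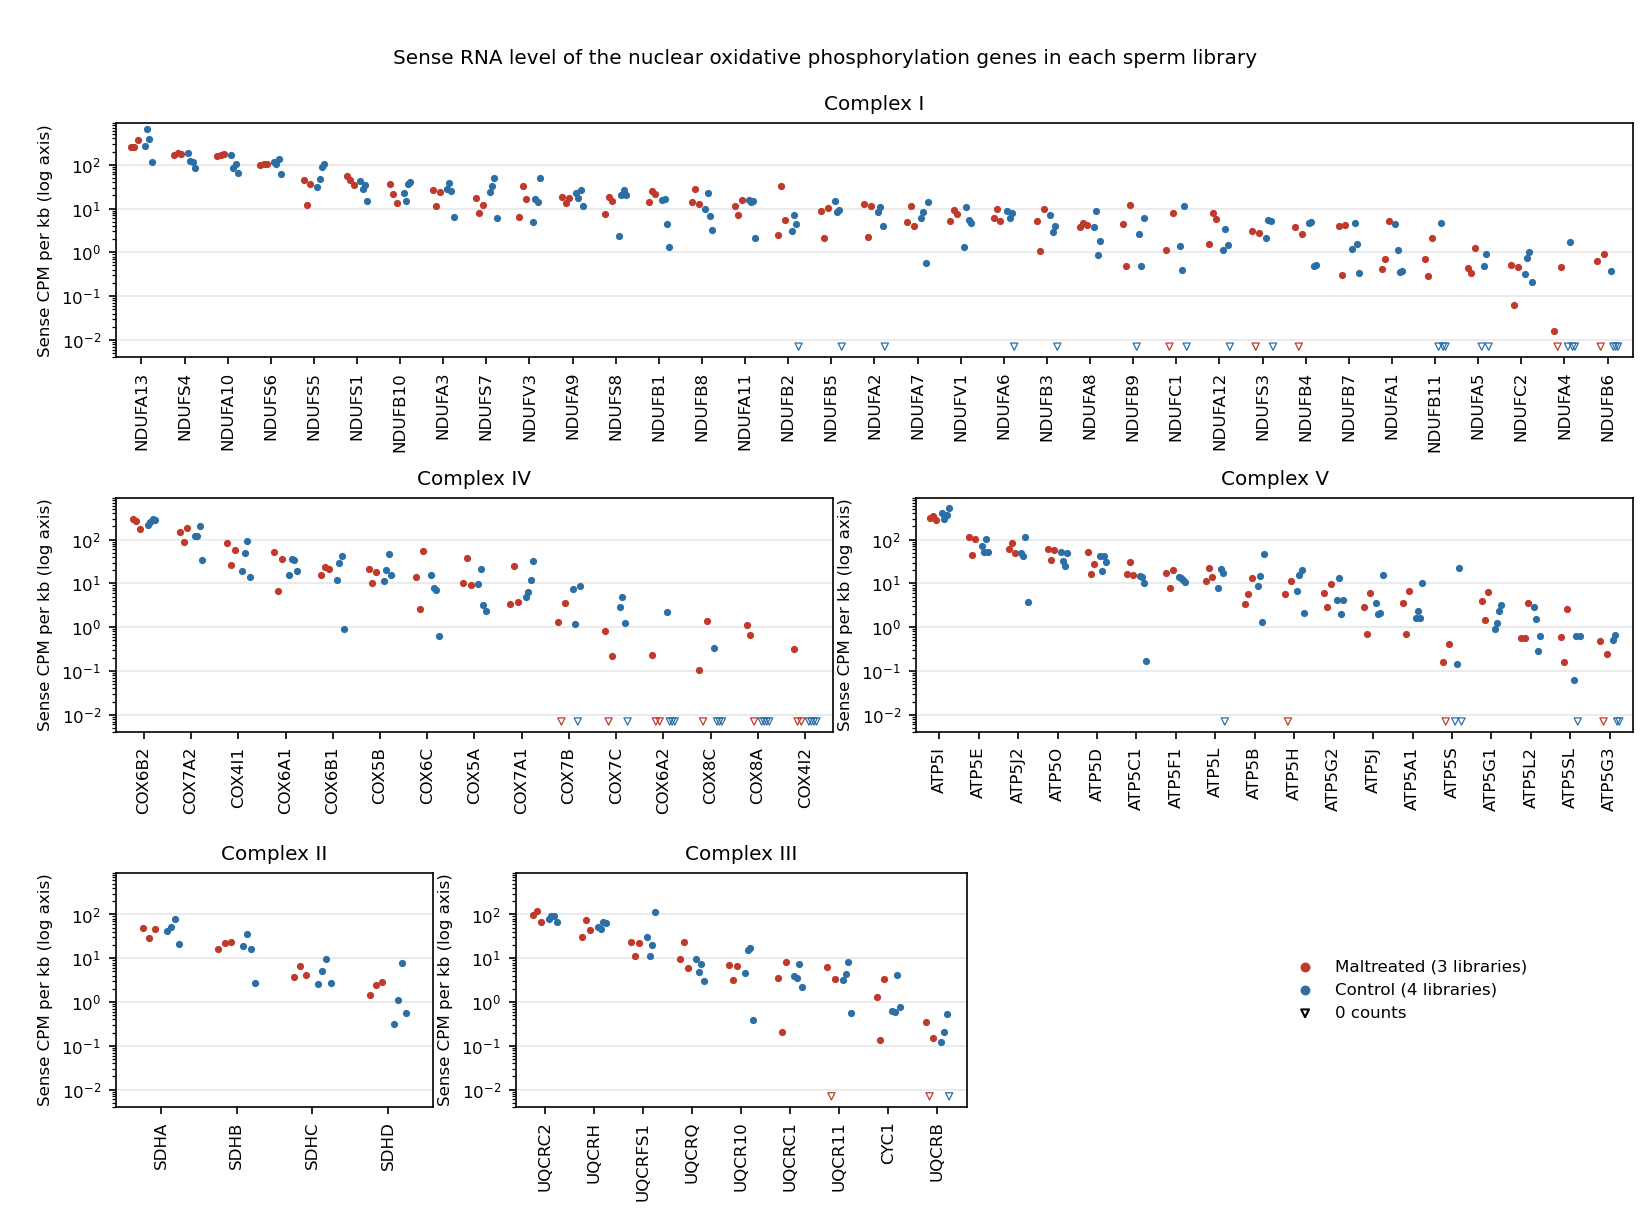
Sense CPM per kb (log axis) of the members by complex (1 of the 82 is not drawn), ordered by mean level, with Maltreated libraries left of Control libraries for each gene. Points are single libraries and open triangles are libraries with 0 counts, drawn at the foot of the axis. The highest genes, at 328 CPM per kb for NDUFA13, 256 for COX6B2 and 361 for ATP5I, were read in all 7 libraries, and libraries with 0 counts gather among the lowest genes.

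In complex I, NDUFA13 led in 7 of 7 libraries. NDUFA13, also known as GRIM-19, is an accessory subunit needed for assembly and lies on chromosome 19, from 19317400 to 19330902 on the plus strand. It had 258, 260.2 and 368 CPM per kb in Maltreated 1, 2 and 3, against 269.7, 651, 378 and 114 CPM per kb in Control 1, 2, 3 and 4. Control 2, the library with most RNA of the epithelium and accessory gland markers, was the highest and Control 4 the lowest, and both groups overlapped. The lead of NDUFA13 depends on how exon counts are used, because neighbouring exons of this gene have nearly the same counts. When the count of the lower neighbouring exon was taken off each exon, a setting added after seeing the data, 9.06% of its counts were left. NDUFA13 then led in 0 of 7 libraries and NDUFS4 in 5. The setting takes most from any gene with near-equal exon counts, whether or not these come from the same reads. NDUFS4, an accessory subunit at the NADH-oxidising end of the complex, had 168, 185 and 173 CPM per kb in Maltreated 1, 2 and 3, against 184, 119.6, 114 and 84.8 CPM per kb in Control 1, 2, 3 and 4. NDUFA10, an accessory subunit of the matrix side on chromosome 2b, from 128742130 to 128807570 on the minus strand, had 155, 167 and 173 CPM per kb in Maltreated 1, 2 and 3, against 169, 82.5, 105 and 64.1 CPM per kb in Control 1, 2, 3 and 4. For both genes the 3 Maltreated libraries lay close together, and Control 1 lay among them while the other Control libraries were lower. NDUFS6, a zinc-binding accessory subunit, was named only after its values were seen and averaged 104 CPM per kb, with a range of 62.6 to 138. NDUFS1, a core subunit that holds iron-sulfur clusters, averaged 36.3 CPM per kb. NDUFA4, first described in complex I and now placed in complex IV, was among the lowest, with 32 sense counts in all.

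In complex II the order SDHA, SDHB, SDHC, SDHD by CPM per kb held in 7 of 7 libraries for each neighbouring pair. SDHA, the flavoprotein that oxidises succinate, had 48.7, 28.9 and 47.5 CPM per kb in Maltreated 1, 2 and 3, against 40.9, 51.1, 78.8 and 21.6 CPM per kb in Control 1, 2, 3 and 4. SDHB, the iron-sulfur subunit, had 15.9, 21.96 and 22.9 CPM per kb in Maltreated 1, 2 and 3, against 19.2, 35.5, 16.6 and 2.75 CPM per kb in Control 1, 2, 3 and 4. SDHC, a membrane anchor, had 3.68, 6.61 and 4.11 CPM per kb in Maltreated 1, 2 and 3, against 2.57, 5.08, 9.42 and 2.70 CPM per kb in Control 1, 2, 3 and 4. Control 4 held the lowest SDHA and SDHB, and SDHA alone made up 48.2 to 78.2% of the summed CPM per kb of the complex. The ratio of SDHB to SDHC was 1.04 in Control 4 and 1.77 to 7.43 in the other 6 libraries. This step of the order is thus small in Control 4, and it depends on length. The last exon of SDHC held 83.5% of its bases and a median of 0% of its counts. In CPM not divided by length SDHC was above SDHB in Control 3 (31.3 against 19.1) and Control 4 (8.94 against 3.17). It was below SDHB in the other libraries. Counted above the lower neighbouring exon, SDHA led in 6 libraries and SDHB in 1.

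In complex III, UQCRC2 led in 6 of 7 libraries. UQCRC2, the core protein 2 on chromosome 16, from 20500149 to 20530512 on the plus strand, had 98.4, 119 and 66.4 CPM per kb in Maltreated 1, 2 and 3, against 78.6, 93.2, 92.1 and 67.8 CPM per kb in Control 1, 2, 3 and 4. UQCRH, the hinge protein that binds cytochrome c1, had 30.7, 73.2 and 43.2 CPM per kb in Maltreated 1, 2 and 3, against 52.5, 46.2, 66.1 and 64.7 CPM per kb in Control 1, 2, 3 and 4. UQCRFS1, the Rieske iron-sulfur protein that passes electrons to cytochrome c1, had 24.1, 11.1 and 22.3 CPM per kb in Maltreated 1, 2 and 3, against 31.1, 11.3, 20.2 and 112 CPM per kb in Control 1, 2, 3 and 4. Counted above the lower neighbouring exon, UQCRC2 led in 3 libraries and UQCRH in 4, and the mean level of UQCRFS1 was 10.5 CPM per kb, against 33.1 with all counts. UQCRFS1 was the leading gene of the complex in Control 4, with 44.5% of its summed CPM per kb, and held 4.83 to 16.8% in the other 6. UQCRC1, the other core protein, averaged 4.15 CPM per kb, although both core proteins are present in equal number in the complex. The ratio of UQCRC2 to UQCRC1, chosen after the levels were seen, was 8.27 to 29.9 in the 6 libraries with more than 2 UQCRC1 counts. In Maltreated 2, with 1183 counts of UQCRC2 and 2 of UQCRC1, it was 572, with an exact 95% interval of 158 to 4731 for counting error only. CYC1, cytochrome c1 itself, averaged 1.57 CPM per kb and did not pass the filter.

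In complex V, ATP5I led in 7 of 7 libraries with 43.9 to 69.1% of the summed CPM per kb. ATP5I encodes subunit e, which takes part in joining ATP synthase dimers, and lies on chromosome 4, from 634920 to 636858 on the minus strand. It had 319.5, 347 and 276 CPM per kb in Maltreated 1, 2 and 3, against 412, 289.6, 364 and 516 CPM per kb in Control 1, 2, 3 and 4. ATP5E, subunit epsilon of the central stalk, had 117, 45.5 and 106 CPM per kb in Maltreated 1, 2 and 3, against 72.3, 51.01, 102 and 53.3 CPM per kb in Control 1, 2, 3 and 4. ATP5J2, subunit f of the membrane part, had 62.7, 85.97 and 50.3 CPM per kb in Maltreated 1, 2 and 3, against 49.5, 43.1, 112 and 3.73 CPM per kb in Control 1, 2, 3 and 4. Control 4 held the highest ATP5I and the lowest ATP5J2. Counted above the lower neighbouring exon, ATP5I still led in 7 of 7 libraries. On average the catalytic core was lower than these small subunits, although in Control 4 both ATP5B and ATP5A1 were above ATP5J2. ATP5B, the catalytic beta subunit, averaged 13.3 CPM per kb with a range of 1.30 to 45.7, and ATP5A1, the alpha subunit, averaged 3.82 with a range of 0.713 to 10.3. ATP5B was above ATP5A1 in 5 of 7 libraries, although alpha and beta are present in equal number in the enzyme. The 3 genes of the proton-carrying c ring, ATP5G1, ATP5G2 and ATP5G3, averaged 2.80, 6.02 and 0.273 CPM per kb. Genes given here by their mean and range alone were chosen after their values were seen.

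In complex IV, COX6B2 led in 6 of 7 libraries and COX7A2 in Maltreated 3. Counted above the lower neighbouring exon, COX6B2 led in 7. COX6B2, the testis isoform of the subunit at the dimer interface, lies on chromosome 19, from 50026621 to 50032055 on the minus strand. It had 300.4, 270.5 and 179 CPM per kb in Maltreated 1, 2 and 3, against 219, 259, 289 and 275 CPM per kb in Control 1, 2, 3 and 4. COX6B1, its widely expressed paralogue on chromosome 19, from 31207305 to 31214924 on the plus strand, had 15.6, 23.3 and 21.4 CPM per kb in Maltreated 1, 2 and 3, against 12.3, 29.7, 43.02 and 0.911 CPM per kb in Control 1, 2, 3 and 4. COX6B2 was higher than COX6B1 in 7 of 7 libraries. The log2 ratio of the levels per kb, with 0.5 added to each count, was 4.26, 3.52 and 3.06 in Maltreated 1, 2 and 3, against 4.14, 3.11, 2.74 and 7.92 in Control 1, 2, 3 and 4. The value of Control 4 rests on 2 COX6B1 counts and 1781 COX6B2 counts. Without the added 0.5 this is a ratio per kb of 302, with an exact 95% interval of 83.5 to 2496. Over the 7 libraries the mean log2 ratio was 4.11 ± 1.77 (SD, n = 7), which is 17.2-fold (two-sided exact sign-flip permutation test, p = 0.0156, the smallest it can give, adjusted p = 0.0195 over 5 pairs). Without Control 4 the mean log2 ratio was 3.47. COX6B2 alone made up 31.2 to 68.3% of the summed CPM per kb of complex IV.

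In 3 other pairs the widely expressed gene was the higher one by CPM per kb in 7 of 7 libraries. COX4I1, a subunit at the regulatory site for ATP, had 85.4, 26.8 and 56.9 CPM per kb in Maltreated 1, 2 and 3, against 19.5, 49.02, 93.3 and 14.3 CPM per kb in Control 1, 2, 3 and 4. COX4I2, its lung isoform, had 6 sense counts, all in Maltreated 1, and 0 counts in the other 6 libraries, which allows up to 0.41 to 0.88 CPM per kb there. COX6A1 had 50.98, 6.76 and 36.5 CPM per kb in Maltreated 1, 2 and 3, against 15.9, 35.99, 34.5 and 19.6 CPM per kb in Control 1, 2, 3 and 4. COX6A2, its muscle isoform, had 3 counts in Maltreated 1 and 9 in Control 1 and none in the other 5 libraries. COX7A2 had 153, 87.6 and 189 CPM per kb in Maltreated 1, 2 and 3, against 120.4, 119.6, 209 and 33.6 CPM per kb in Control 1, 2, 3 and 4. COX7A1, its muscle isoform, had 3.32, 24.7 and 3.72 CPM per kb in Maltreated 1, 2 and 3, against 5.01, 6.32, 11.7 and 31.97 CPM per kb in Control 1, 2, 3 and 4. For COX7A1 over COX7A2 the mean log2 ratio was -3.71 ± 2.04 (SD, n = 7), which is 0.0762-fold. Control 4 stood apart with a log2 ratio of -0.072, where COX7A1 and COX7A2 had nearly the same level, and without Control 4 the mean was -4.32. The exact sign-flip permutation test gave p = 0.0156 and an adjusted p = 0.0195 for each of these 3 pairs. Leaving out Control 4 and Maltreated 3 together left 5 libraries, with which the exact test cannot go below p = 0.0625. The direction was then the same in all 5 libraries for these 3 pairs and for COX6B2.

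The remaining pairs did not separate. COX7B2, the testis isoform of COX7B, which falls outside the name rule, had 8.89, 5.15 and 8.85 CPM per kb in Maltreated 1, 2 and 3, against 5.82, 11.2, 1.62 and 0 CPM per kb in Control 1, 2, 3 and 4. COX7B had 1.33, 0 and 3.64 CPM per kb in Maltreated 1, 2 and 3, against 7.30, 1.20, 0 and 8.64 CPM per kb in Control 1, 2, 3 and 4. COX7B2 was the higher gene in 5 of 7 libraries, with a mean log2 ratio of 1.35 ± 3.37 (SD, n = 7, exact sign-flip permutation test p = 0.313). Without Control 4 the ratio was 2.47 (exact sign-flip permutation test p = 0.0625), and it was 0.77 to 2.47 over all single libraries left out. COX8C, the testis isoform of COX8A, had 7 sense counts over the 7 libraries, and COX8A had 19. COX8C counts lay in Maltreated 1, Maltreated 3 and Control 1, and COX8A counts in Maltreated 1 and 2. In the libraries without a count the limit was 1.58 to 1.76 CPM per kb for COX8C and 0.518 to 1.11 for COX8A. NDUFA4L2, a paralogue of NDUFA4 known from hypoxia, had 34 sense counts and NDUFA4 had 32, and each had counts in 3 libraries. These last pairs had too few counts for a test. The ratio within a pair was also compared between groups. In none of the 5 tested pairs did it pass, and the adjusted p was 0.8 in each (two-sided exact permutation test over 35 splits into 3 and 4). The smallest p that test can give is 0.0286.

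**Figure D2:**
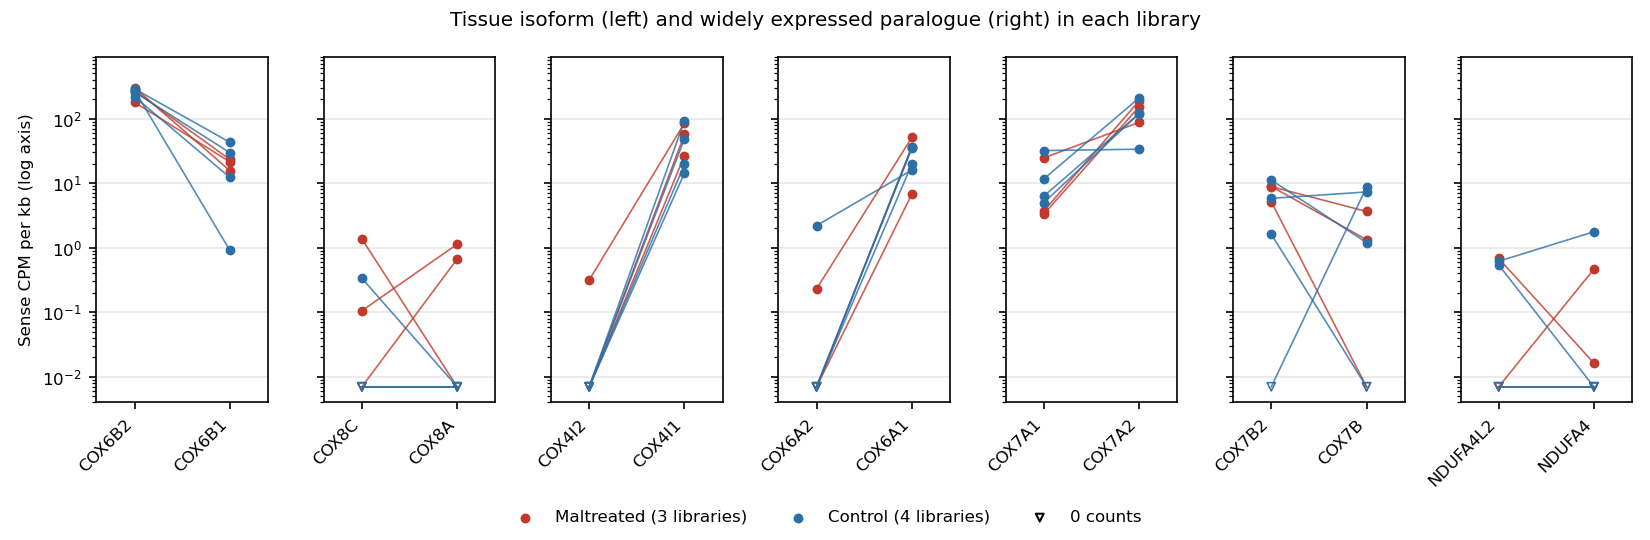
Sense CPM per kb (log axis) of each tissue isoform (left) and its widely expressed paralogue (right), with 1 line per library, Maltreated in red and Control in blue. Open triangles at the foot of the axis are libraries with 0 counts. All 7 lines go down for COX6B2 and COX6B1, at a mean log2 ratio of 4.11, and up for COX4I2, COX6A2 and COX7A1, with Control 4 nearly flat in the last.

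Reads were unevenly spread along the genes. The covered bases listed in the files are not used as a measure of this. Of 9 cases in which a member exon of at least 1000 bases had 1 sense count in a library, 4 were listed as fully covered, so counts and covered bases may include stretches between the aligned parts of a read. In 30 members with at least 5 exons and at least 100 counts the counts per exon were set against exon length. The last exon held less than its share of length in 29 of them and the first exon in 25. A run of neighbouring exons that held the densest exon, with each exon at 20% or more of its density over all libraries, was part of the gene in 24 members. These runs were found in the same counts that they describe. In UQCRC2 it was exons 8 to 12 of 14, with 30.6% of the bases and 79.9 to 96.2% of the counts of a library. In NDUFA10 it was exons 6 to 9 of 10, with 22.4% of the bases and 88.2 to 98.2% of the counts. In NDUFS1 it was exons 10 to 16 of 19, with 29.4% of the bases and 74.2 to 93.9% of the counts. COX6B2 had 86.9 to 95.7% of its counts on exons 1 to 3 of 5, which hold 32.5% of the bases. In these 4 genes every library had its densest exon inside the run. NDUFA13, in contrast, had all 5 exons in its run. A level per kb of whole gene thus rests on a stretch of it in these genes, and a pair such as UQCRC2 and UQCRC1 is compared over different stretches.

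**Figure D3:**
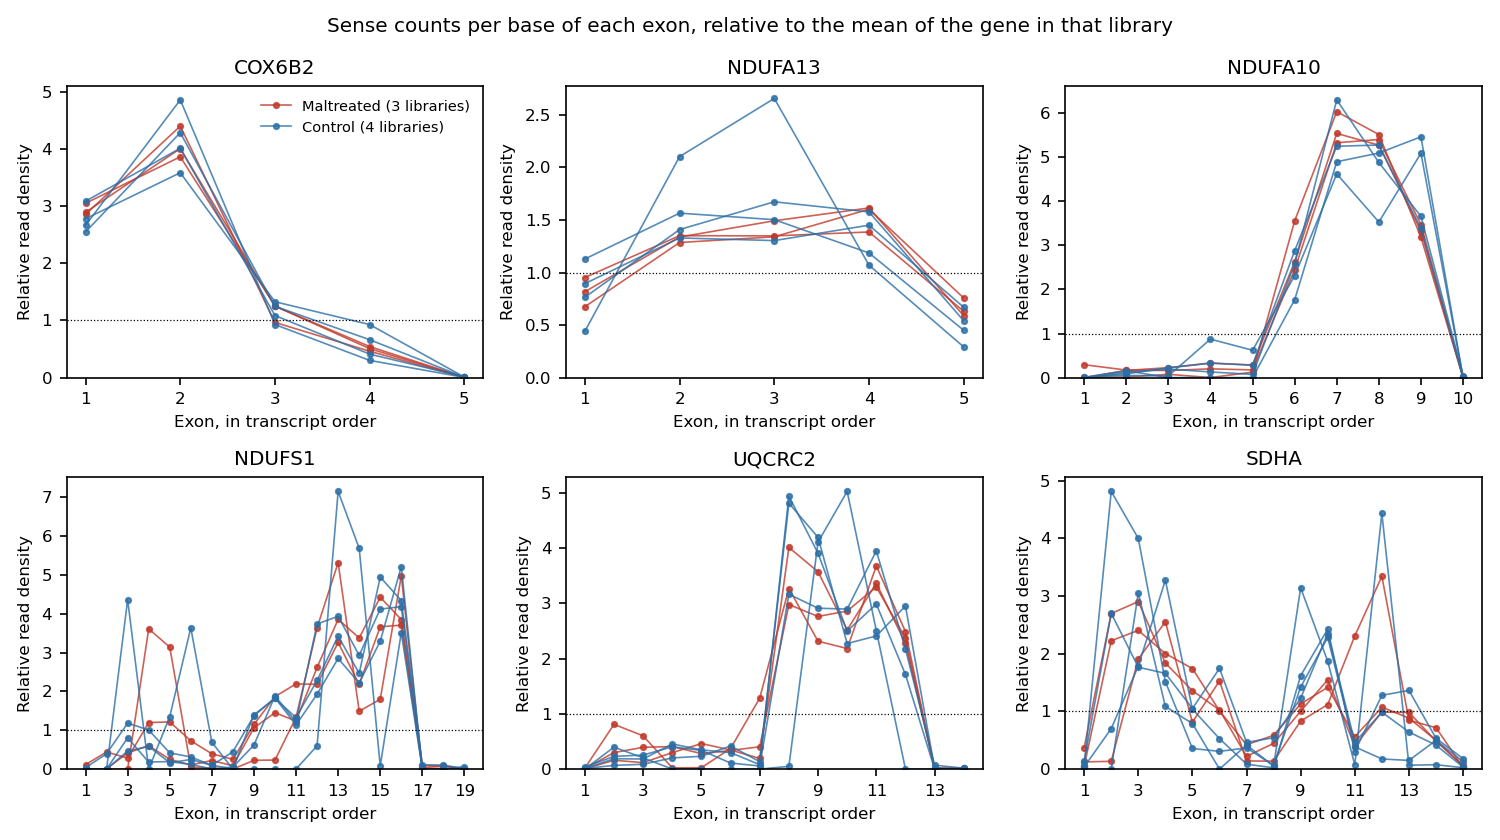
Sense counts per base of each exon, relative to the mean of the gene in the same library (vertical axis, dotted line at 1), by exon in transcript order for 6 members, with Maltreated libraries in red and Control libraries in blue. The profile of NDUFA10 stands on exons 6 to 9, that of UQCRC2 on exons 8 to 12 and that of COX6B2 on exons 1 to 3 in both groups, NDUFA13 is read along all 5 exons, and SDHA shows several peaks that differ between libraries.

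The main comparison asked whether these genes differ between Maltreated and Control sperm. The summed level of the 82 members was 2213 ± 98.9 CPM in Maltreated (SD, n = 3) and 2110 ± 324 CPM in Control sperm (SD, n = 4). Complex I summed to 936 ± 27.1 CPM in Maltreated (SD, n = 3) and 821 ± 222 in Control sperm (SD, n = 4). Control 4 held 492 CPM of it, and the other Control libraries held 895 to 974 CPM, within or near the 916 to 967 CPM of the Maltreated libraries. Complex II summed to 138 ± 19.0 CPM in Maltreated (SD, n = 3) and 151 ± 76.2 in Control sperm (SD, n = 4). Complex III summed to 251 ± 43.8 CPM in Maltreated (SD, n = 3) and 265 ± 31.3 in Control sperm (SD, n = 4). Complex IV summed to 513 ± 72.5 CPM in Maltreated (SD, n = 3) and 488 ± 107 in Control sperm (SD, n = 4). Complex V summed to 376 ± 42.4 CPM in Maltreated (SD, n = 3) and 384 ± 45.8 in Control sperm (SD, n = 4). For each complex the difference of the means was smaller than the SD of at least 1 group, and the groups overlapped.

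**Figure D4:**
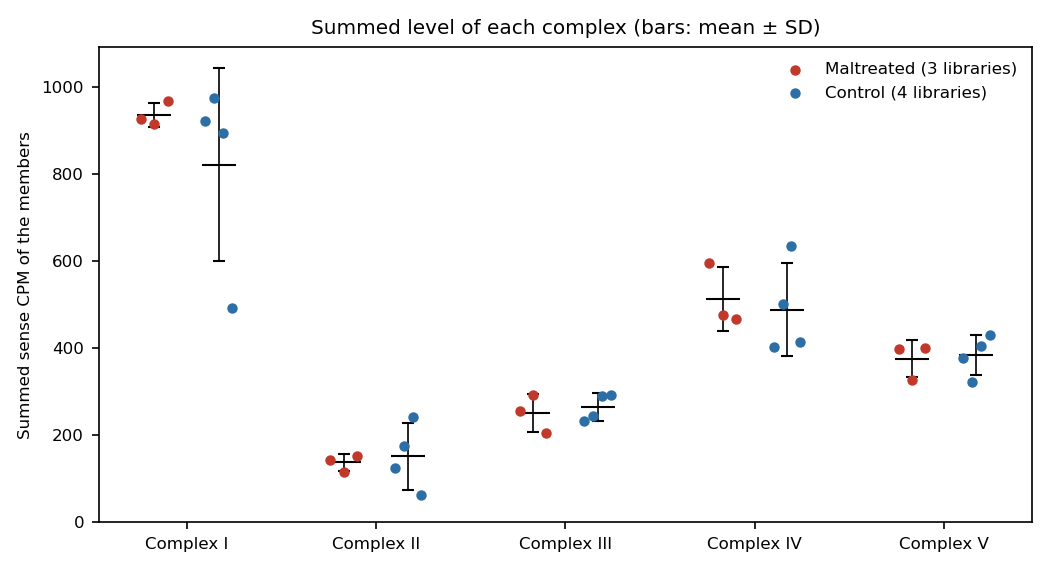
Summed sense CPM of the members of each complex in every library (points), with Maltreated left of Control and the mean ± SD of each group as black bars. The groups overlap in all 5 complexes, and Control 4 lies apart from the other libraries in complex I, at 492 CPM.

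Of the 82 members 67 passed the filter on low counts. The members not tested were NDUFA1, NDUFA4, NDUFA5, NDUFB6, NDUFB11 and NDUFC1 of complex I, CYC1 of complex III, COX4I2, COX6A2, COX7C, COX8A and COX8C of complex IV, and ATP5G3, ATP5L2 and ATP5S of complex V. In edgeR's quasi-likelihood test no member passed an adjusted p of 0.05, and 0 of all 10719 genes did (0%). The smallest adjusted p was 0.999. In this fit no member had an unadjusted p under 0.05, against 191 of all genes tested (1.78%), and by the DESeq2 Wald test the member count was also 0. It was 1 in some other edgeR fits. The member was NDUFS7 with age added and without Control 4, beside 313 of all genes in each of these fits. It was NDUFA10 without Control 1, beside 267, and UQCRQ with the lower neighbouring exon taken off, beside 149. None of these passed the adjusted test. In the main fit 31 of the 67 tested members had a higher and 36 a lower estimate in Maltreated sperm. The median of their log2 fold changes was -0.045, beside -0.018 over all genes tested, and 46.3% of members and 48.7% of all genes had a higher estimate. By complex, the estimates were higher and lower in 14 and 16 members of complex I, 1 and 3 of complex II, 2 and 6 of complex III, 5 and 5 of complex IV, and 9 and 6 of complex V. The medians were -0.025, -0.10, -0.27, 0.094 and 0.28 in that order. The split moved with single libraries. Without Control 3 it was 40 higher and 27 lower with a median of 0.22, and without Maltreated 2 it was 46 and 28 of 74 tested members with a median of 0.22. Limma-voom with sample weights gave 40 higher and 27 lower, and with that fit 59.1% of all genes had a higher estimate.

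**Figure D5:**
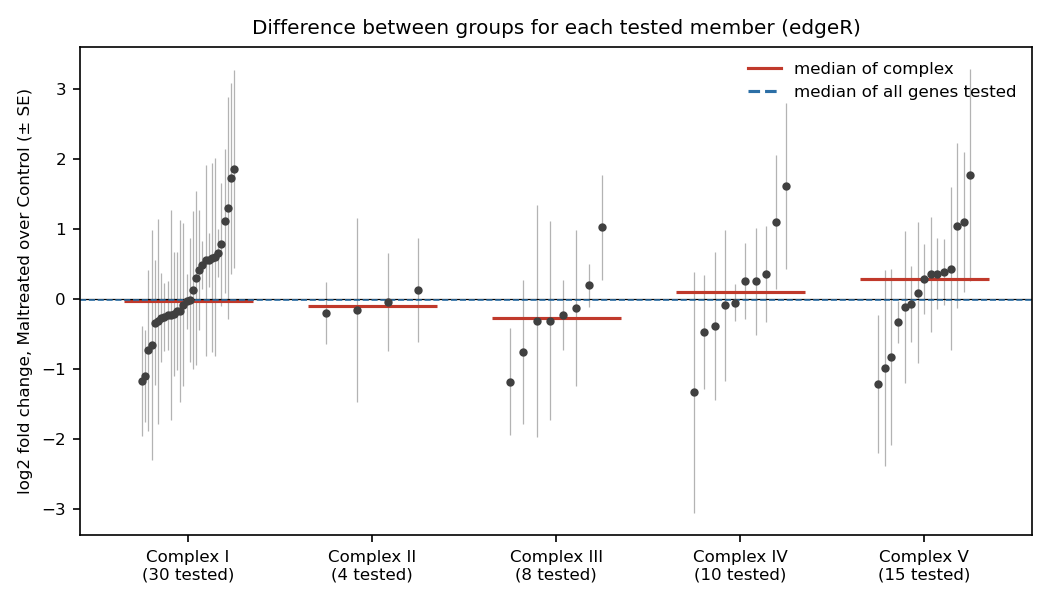
Fitted log2 fold change of Maltreated over Control (vertical axis) of the 67 tested members by complex, each with its SE. Red lines are the medians of the complexes, between -0.27 and 0.28, and the dashed line is the median of all genes tested at -0.018. Members lie on both sides of 0 in every complex.

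The members with the smallest unadjusted p in the higher direction were NDUFA10, NDUFS1, NDUFS4, COX6C and UQCRQ. For NDUFA10 the log2 fold change was 0.65 ± 0.34 (SE), with an unadjusted p = 0.0839 by edgeR. The core subunit NDUFS1 had 54.9, 44.2 and 33.9 CPM per kb in Maltreated 1, 2 and 3, against 42.8, 28.6, 35.02 and 14.5 CPM per kb in Control 1, 2, 3 and 4. The log2 fold change of NDUFS1 was 0.55 ± 0.39 (SE), and that of NDUFS4 was 0.48 ± 0.34 (SE). In NDUFA10, NDUFS1 and NDUFS4 Control 4 was the lowest library, and Control 1, in NDUFS1 also Control 3, lay within the Maltreated range. COX6C, a small structural subunit of complex IV, had 14.03, 2.54 and 55.1 CPM per kb in Maltreated 1, 2 and 3, against 15.7, 7.96, 6.93 and 0.629 CPM per kb in Control 1, 2, 3 and 4. For COX6C the log2 fold change of 1.61 ± 1.18 (SE) was 0.069 without Maltreated 3, the library with most leukocyte marker RNA. UQCRQ, which binds near the ubiquinone site, had 9.39, 23.00 and 6.08 CPM per kb in Maltreated 1, 2 and 3, against 9.85, 4.87, 7.38 and 3.05 CPM per kb in Control 1, 2, 3 and 4. The log2 fold change of UQCRQ was 1.02 ± 0.75 (SE), and 0.27 without Maltreated 2.

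In the lower direction these were NDUFS5, UQCRFS1, NDUFS7, ATP5B and ATP5I. NDUFS5, an accessory subunit of the intermembrane side, had 44.96, 12.3 and 36.8 CPM per kb in Maltreated 1, 2 and 3, against 31.5, 46.8, 86.8 and 105 CPM per kb in Control 1, 2, 3 and 4. Control 4 was the highest and Maltreated 2 the lowest library, and the log2 fold change was -1.10 ± 0.66 (SE) with an unadjusted p = 0.124 by edgeR. NDUFS7, the core subunit with the last iron-sulfur cluster before ubiquinone, had 17.2, 7.99 and 12.2 CPM per kb in Maltreated 1, 2 and 3, against 24.4, 32.97, 49.2 and 6.01 CPM per kb in Control 1, 2, 3 and 4. Control 3 was the highest and Control 4 the lowest library, with an estimated log2 fold change of -1.17 ± 0.78 (SE). ATP5B had 3.47, 5.66 and 13.5 CPM per kb in Maltreated 1, 2 and 3, against 8.85, 14.5, 1.30 and 45.7 CPM per kb in Control 1, 2, 3 and 4. The ATP5B estimate, a log2 fold change of -1.22 ± 0.99 (SE), was -0.13 without Control 4. That of UQCRFS1, -1.18 ± 0.76 (SE), was -0.14 without Control 4, which held 112 CPM per kb against 11.1 to 31.1 in the other 6 libraries. ATP5I had a log2 fold change of -0.33 ± 0.31 (SE), with a range of -0.45 to -0.19 when single libraries were left out.

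The groups did not overlap in 1 of 67 tested members (1.49%), against 385 of all genes tested (3.59%). This member was ATP5C1, the gamma subunit that turns inside the ATP synthase, named for this count after its values were seen. It had 16.2, 30.7 and 15.9 CPM per kb in Maltreated 1, 2 and 3, against 14.6, 14.2, 10.3 and 0.170 CPM per kb in Control 1, 2, 3 and 4, and a log2 fold change of 1.09 ± 1.00 (SE). In Control 4 it had 1 sense count, and the lowest Maltreated library was close to Control 1. The share of all genes higher without overlap was 2.1%. COX6B2, the most abundant complex IV member, averaged 250.1 ± 63.1 CPM per kb in Maltreated sperm (SD, n = 3), against 260.5 ± 30.3 in Control sperm (SD, n = 4). The fold change fitted for COX6B2 on the log2 scale was -0.059 ± 0.26 (SE). Its SE was the smallest of the genes given with all libraries. The biological coefficient of variation over all genes tested was 0.858.

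Other genes of the pathway, from lists of names, likewise held none that passed the adjusted test. Of 9 subunits and carriers outside the name rule 7 were tested, with 5 higher and 2 lower estimates. The log2 fold change of COX7A2L, which takes part in joining complexes III and IV, was 1.53 ± 1.34 (SE), and ATPIF1, the inhibitor of the ATP synthase, had one of -0.083 ± 0.45. Of 49 assembly factors 42 were in the table and 27 tested, with 11 higher and 16 lower. TMEM126B, an assembly factor of complex I, was the gene of this list with the smallest p in the higher direction. It had 2.45, 30.1 and 9.90 CPM in Maltreated 1, 2 and 3, against 2.24, 0.544, 0 and 0 CPM in Control 1, 2, 3 and 4. The estimate for TMEM126B was a log2 fold change of 4.26 ± 1.55 (SE) with an unadjusted p = 0.0199 and an adjusted p = 0.999 by edgeR, and 3.04 to 6.20 when single libraries were left out. PET100, an assembly factor of complex IV, had a log2 fold change of -1.66 ± 0.80 (SE). Of 13 genes of the tricarboxylic acid cycle 12 were tested, with 5 higher and 7 lower. MDH2, the mitochondrial malate dehydrogenase, averaged 123 ± 54.2 CPM in Maltreated (SD, n = 3) and 188 ± 71.6 CPM in Control sperm (SD, n = 4), a log2 fold change of -0.61 ± 0.41 (SE). DLD, a subunit that this cycle shares with other dehydrogenases, had a log2 fold change of 0.88 ± 1.54 (SE). Of 12 regulators 11 were tested, with 5 higher and 6 lower. NRF1, a transcription factor of nuclear genes for mitochondria, had one of 0.72 ± 0.47 (SE). PPRC1, a coactivator of such genes, had 12.1, 4.52 and 10.2 CPM in Maltreated 1, 2 and 3, against 29.1, 18.7, 7.69 and 191 CPM in Control 1, 2, 3 and 4. The estimate for PPRC1 was a log2 fold change of -2.78 ± 1.04 (SE), with an unadjusted p = 0.0226 by edgeR, and -1.06 without Control 4, which alone held the high level.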

How the data were processed

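STAR, bedtools and featureCounts are named, without version or role, per the submitters' processing notes. The sources used here name no genome build, and coordinates are those of the files. The authors deposited, per the file headers and layout, the count of reads on each exon and gene and strand, without normalisation, and the covered fraction of each exon and gene. Gene counts equalled the sums over exon entries in all 7 libraries. RTN3 and ZC3HAV1, listed on both strands, were left out. Of the 82 members 63 names are current symbols of RefSeq, 10 match by synonym and 9 match none. Exons of 4 members overlap another gene, 1 of them (NDUFC2) on the same strand. A complex I gene that is part of all counts and sums is not reported here by itself.

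Sense counts went into edgeR 4.0.16 (R 4.3.3, TMM, filterByExpr with a minimum count of 10 and a minimum total of 15, quasi-likelihood F test, 5 residual degrees of freedom), with Benjamini-Hochberg adjustment over 10719 genes and a threshold of 0.05. Isoform ratios used exact permutation tests over the 7 libraries, with 0.5 added to each count. Pairs were tested only where the pair had more than 3 counts in every library, a rule set after seeing the data. Limits at 0 counts use 3 counts and, like the intervals, cover only the error of counting, because reads that carry no molecular identifier need not be separate molecules. The tests were also run on simulated data, and the outcome is not given here. The share of true changes that 3 against 4 libraries would find is thus not stated. The rule for named genes takes both genes of each pair, the 3 highest per complex and, per direction, the 5 with the smallest p, and of each other list the gene with the smallest p in each direction. The members, pairs and lists were chosen with earlier results of these data known. Alternatives covered DESeq2 1.42.0 (size factors and Wald test), total-count and upper-quartile scaling, limma 3.58.1 voom weights, other filters, the replicate number, age, added antisense counts, distinct exons, exon counts less those of the lower neighbouring exon, a pseudocount of 1, and left-out libraries. Depth sets the floor: 3 counts stand for 0.1005 CPM in Maltreated 1 and 0.559 CPM in Control 4.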

Additional observations from a re-analysis of the deposited data

Results flagged for a closer look

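Within the 4 Control libraries, 51 values were checked for a single library far from the others, and chance gives about 1 such library in 20 groups. In 6 values 1 library stood apart. Control 1 held 0.337 CPM per kb of COX8C and 2.20 CPM per kb of COX6A2, and Control 2 held 1.77 CPM per kb of NDUFA4, where the other 3 Control libraries had 0. Any count beside 3 libraries at 0 is set apart in this way, so these 3 say little. They rest on 1, 9 and 20 counts, and that of COX8C is below the 1.62 to 1.76 CPM per kb that 0 counts allow in the others. Control 4 held 191 CPM of PPRC1, against 7.69 to 29.1 CPM in the other Control libraries. Its log2 ratio of COX7A1 over COX7A2 was -0.072, against -4.57 to -4.15 in the others. Its summed level of complex I was 492 CPM, against 895 to 974 CPM in the others. Control 4 was also the Control library with most leukocyte marker RNA, at 684 CPM, of which CD74 held 497 CPM. It also had the fewest members detected, and the part of either in these values was not tested.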

How the results depend on the processing

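No gene passed the adjusted test under any scaling, filter or left-out library run here, whereas the DESeq2 Wald test called 3 genes and the fit with age 1, none of them a member. Same-numbered libraries of the groups did not deviate together (correlations 0.075, 0.0099 and -0.019). The fit with the replicate number as a block called 0 genes, with 275 genes at an unadjusted p under 0.05, and gave log2 fold changes of -0.15 for COX6A1, -0.083 for COX7A2 and -0.17 for SDHB, each the other way from the fit without it. The summed level of complex III had a log2 ratio of 0.13 with the count of the lower neighbouring exon taken off each exon. Without Control 4 and Maltreated 3 together, 27 of 65 tested members had a higher estimate. The isoform ratios then kept their direction but could not pass with 5 libraries (adjusted p = 0.0781), at log2 3.56 for COX6B2, -8.27 for COX4I2, -6.09 for COX6A2 and -4.06 for COX7A1. With 1 library left out each of these 4 passed, at log2 3.47 to 4.34, -8.51 to -8.00, -7.12 to -6.16 and -4.32 to -3.39. COX4I2 and COX6A2 had 0 counts in 6 and 5 libraries, so the size of their ratios is set by the 0.5 added. With 7 libraries and other settings all 4 still passed, but COX4I2 was at -4.66 with antisense counts, -6.52 with lower neighbours taken off and -7.37 with 1 added, COX7A1 at -2.33 with lower neighbours taken off, and COX6B2 at 5.67 without division by length. The group differences of these ratios, which never passed, changed sign without Control 4 and Maltreated 3 to 0.56 for COX6B2, 0.76 for COX4I2 and 0.64 for COX7A1, and that of COX6A2 to 0.13 with antisense counts added. With 1 library left out they ranged over -1.44 to 0.28, -0.81 to 0.27 and, for COX6A2, -1.99 to 0.062.

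No fold change of a named gene passed in any of these fits, and several changed sign. With lower neighbours taken off the values were 0.061 for COX6B2, 0.93 for COX6B1, -0.90 for COX6A1, -0.089 for SDHB, 0.17 for SDHC, 0.32 for UQCRFS1, 0.026 for ATPIF1 and -0.30 for DLD. With age they were -0.55 for COX4I1, -0.21 for COX6A1, 0.21 for COX7A1, -0.25 for COX7A2, 3.01 for COX7B, -0.24 for SDHB, -0.15 for UQCRC2, 0.23 for UQCRFS1, -0.67 for ATP5J2, 1.74 for ATP5B and 0.29 for PPRC1. Without Control 4 and Maltreated 3 they were 0.14 for COX6B2, 0.84 for COX7A1, -0.33 for COX7A2, -0.34 for SDHB and -0.30 for COX6C. By limma-voom they were -0.14 for SDHB and 0.029 for UQCRFS1, and with antisense counts -0.15 for COX7B2. Leaving out 1 library changed the sign for ATP5J2 (-0.053 to 1.04), ATPIF1 (-0.38 to 0.16), COX4I1 (-0.081 to 1.03), COX6A1 (-0.30 to 0.71), COX6B1 (-0.50 to 0.49), COX6B2 (-0.21 to 0.13), COX7A1 (-1.96 to 0.45), COX7A2 (-0.077 to 0.65), NDUFA13 (-0.56 to 0.22), SDHA (-0.46 to 0.14), SDHB (-0.24 to 0.65), SDHC (-0.36 to 0.48), UQCRC2 (-0.026 to 0.38) and UQCRH (-0.65 to 0.019). The causes were not tested. Members without a count numbered 21 in Control 4, the library with the fewest sense counts, and 0 in Maltreated 1, the one with the most. They numbered 16, 10 and 5 in Maltreated 2, Control 3 and Control 2, with 6160996, 6002772 and 5528056 sense counts. The part of depth in this was not tested.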

Other observations

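Antisense reads, on the strand opposite to the gene, made up 3.54% of the counts of the median member, against 9.76% for the median gene with a count, and less than 5% in 48 of the 82 members. In 6 members antisense counts outnumbered sense counts, a pattern seen in 17.7% of all genes with a count. NDUFA11, an accessory membrane subunit of complex I, had 11434 antisense and 712 sense counts, so that 94.1% of its counts were antisense. A read counts on each exon it spans, so the share of reads is not known. The antisense counts of its 4 exons were nearly equal in each library, although the exons are 400, 92, 122 and 184 bases long. They were 540, 544, 544 and 544 in Maltreated 1, against 323, 323, 324 and 325 in Control 1 and 79 on each exon in Control 4. The other 5 were NDUFS3 with 63.4%, COX4I2 with 94.6%, COX7C with 73.9%, COX8C with 88.7% and ATP5G3 with 68% antisense counts over all libraries. In ATP5G3 127 of the 136 antisense counts lay in Control 4, and sense counts were more in each of the 4 libraries that had any. In Maltreated 3 NDUFS3 had 29 sense and 14 antisense counts, and COX8C had 5 and 2.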
